A study of Mus musculus with 6 samples.

Results

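Collagen genes encode the chains of the main fibrous and sheet-forming proteins of the extracellular matrix. The members were the protein-coding rows whose whole GENCODE symbol was Col, a type number, the letter a and a chain number. The rule used symbols only and no measured value, though earlier results of these data were known when it was chosen. It gave 44 of 21903 protein-coding rows, in a table of 55573 gene rows. They were split into 11 fibrillar genes, 8 basement membrane genes (types IV, XV and XVIII) and 25 other genes. *Col4a3bp*, a ceramide transfer gene whose symbol starts the same way, was left out.

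RNA-Seq was performed on dissociated mouse retina after a sort meant to enrich RGCs, which send their axons through the optic nerve. C57BL/6J mice, 6 to 10 weeks old and of both sexes per the study's methods, received AAV2-*GFP* (control, 3 libraries) or AAV2-*Ezh2* (3 libraries) in the vitreous. Both groups underwent ONC 2 weeks later and were sorted after another 3 days, with no uninjured or uninjected group among these libraries. Cells positive for the *Thy1* product CD90.2 and negative for a dead cell dye were kept. *Ezh2* encodes the methyltransferase of the Polycomb repressive complex PRC2, which marks histone H3. AAV2 can also enter other retinal cells, and the labels do not say whether replicates came from separate animals, so p values measure the spread between these libraries, which may be technical.

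Collagen chains wind into a triple helix in the endoplasmic reticulum, where hydroxylases and chaperones modify and fold them. Fibrillar types form ropes in connective tissue and vessel walls, type II together with type IX also in cartilage and the vitreous, and type IV forms the meshwork of basement membranes such as the inner limiting membrane of the retina and the sheets around its vessels. Type VI makes beaded microfibrils close to cell surfaces. Fibroblasts, mural cells, endothelial cells and glia are known sources of these chains.

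The libraries held 30569933 to 35971192 counts, and a gene with no count may still reach 3 counts, or 0.0834 to 0.0981 CPM (a count scaled to the total of its library), a limit that covers counting error only. Values are listed in the order of replicates 1, 2 and 3. *Ezh2* itself had 28.8, 34.6 and 33.0 CPM in the GFP libraries, below 78.0, 65.3 and 104.8 CPM in the Ezh2 libraries. Ezh2 replicate 3 stood apart, correlating across genes at 0.971 with another Ezh2 library, where the remaining Ezh2 pair reached 0.988. The study excluded 1 Ezh2 library, inferred here to be replicate 3, so values are given for 5 libraries (without it) and for all 6. Of 12 RGC markers 9 were tested, with *Thy1* at 87.2 to 113.8 CPM, *Rbpms* at 16.4 to 20.8 CPM and *Nefl* at 9.42 to 15.4 CPM, while the RGC transcription factors *Pou4f2* and *Pou4f1* had 0 to 3 and 0 to 19 counts in any library. The 12 summed to 137.6 to 168.6 CPM and 10 Müller glia markers to 23818.8 to 31519.8 CPM.

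*Ezh2* overexpression was accompanied by lower mRNA levels of many collagen genes and a higher level of 1. Together the 44 genes took 2958.5 to 3157.6 CPM in the GFP libraries and 2239.9 to 2585.5 CPM in the Ezh2 libraries, and the groups did not overlap. Here "fell" and "rose" mean an adjusted p under 0.05 in edgeR's quasi-likelihood test, and "called" means in addition a fold change above 1.5. In 5 libraries 38 genes could be tested and 5 were called lower (*Col1a1*, *Col6a1*, *Col6a2*, *Col6a3* and *Col8a2*), beside 1.28% of all tested genes called lower and 3.8% called in either direction. No collagen was called higher by edgeR or DESeq2, with 2 higher at an unadjusted p under 0.05 in each. Without the fold threshold 15 of the 38 fell, beside 7.68% of all genes, and 1 (*Col15a1*) rose, beside 10.1%. The median log2 fold change of the tested collagens was -0.24 against -0.01 over all tested genes, and 32 of 38 were negative.

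With Ezh2 replicate 3 included, 3 collagen genes were called lower, all of type VI, beside 0.902% of all genes, and 10 fell, beside 2.7%. None rose in this edgeR fit, with 1 higher at an unadjusted p under 0.05. Every Ezh2 library lay below every GFP library in 17 of the 38 tested collagens, beside 19.3% of all tested genes, and the reverse held for *Col15a1* alone. The 17 were made up of 6 of 11 fibrillar, 2 of 8 basement membrane and 9 of 19 tested other collagens. Ezh2 replicate 3 was the lowest of the 6 libraries for 20 of the 38. Its *Col1a1*, *Col6a3*, *Col7a1*, *Col8a2*, *Col11a2* and *Col24a1* levels were the highest of the Ezh2 group. These CPM used library totals, this library had the lowest TMM scaling factor (0.952), and the share over all genes was not determined.

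**Figure D1:**
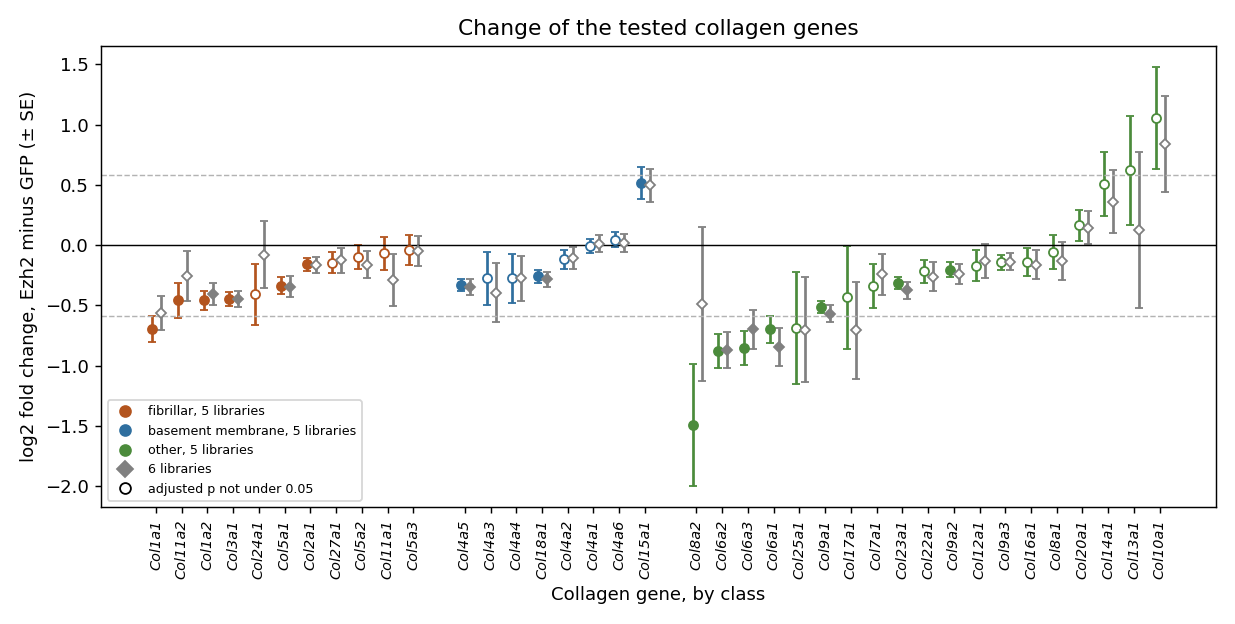
Log2 fold change (y axis, Ezh2 minus GFP, bars ± SE) of each of the 38 tested collagen genes (x axis, by class) in 5 libraries (coloured circles) and 6 libraries (grey diamonds). Filled symbols have an adjusted p under 0.05 and dashed lines mark a fold change of 1.5. All 11 fibrillar genes lie below 0 in both fits, *Col15a1* is the only filled symbol above 0, and the 3 type VI genes lie below the lower dashed line in both fits.

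The retinal sort expressed a wide range of collagens. Scaled to exon length, 10 members averaged at least 10 CPM per kb over the 6 libraries and 26 averaged at least 1. *Col23a1*, a transmembrane collagen, led at 82.1 CPM per kb, followed by *Col9a1* at 64.4, *Col2a1* at 60.4, *Col4a5* at 34.0 and *Col18a1* at 31.3 CPM per kb. These 5 genes held 64.2% to 67.1% of all collagen reads in each library. The classic connective tissue chains were far lower, with *Col3a1* at 12.4, *Col1a2* at 4.05 and *Col1a1* at 2.81 CPM per kb. At the other end 6 members did not pass the filter on low counts (*Col6a4*, *Col6a5*, *Col6a6*, *Col19a1*, *Col26a1* and *Col28a1*), with at most 12 counts in any library, and no difference could be detected for them at this depth.

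**Figure D2:**
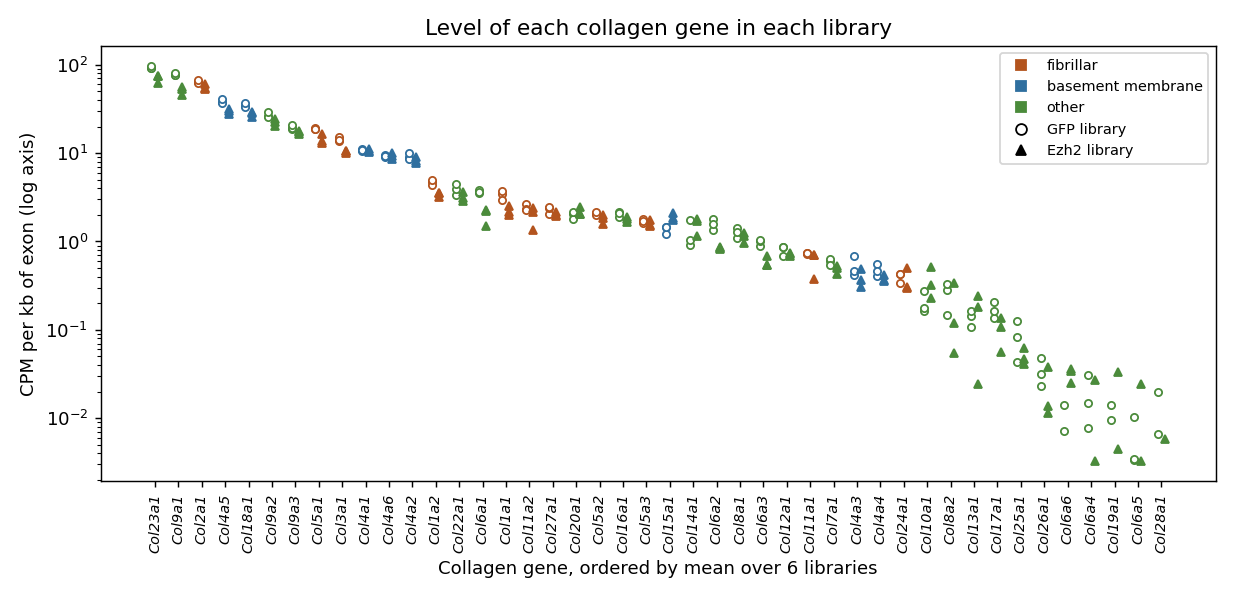
Level of each of the 44 collagen genes in each library (y axis, CPM per kb of exon, log scale), with genes ordered by their mean over 6 libraries (x axis). Open circles are GFP libraries, filled triangles Ezh2 libraries and colours the 3 classes. The 8 pairs of gene and library with a count of 0 are not drawn. *Col23a1*, *Col9a1* and *Col2a1* stand at the top, and the 6 untested genes at the bottom right.

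Type VI collagen was called lower throughout its tested members. The chains α1, α2 and α3, encoded by *Col6a1*, *Col6a2* and *Col6a3*, join in one molecule that links cells to the surrounding matrix, and all 3 tested type VI genes passed in 5 and in 6 libraries, beside 1.28% and 0.902% of all genes. Promoter sequence is shown for the called collagens that had an entry in the RefSeq table for GRCm38, as the 120 bases that end just before the GENCODE start site, 5′ to 3′ on the strand of the gene, with each CG pair in capitals. The RefSeq start of *Col6a1*, at 76726044, lies further downstream than its GENCODE start at 76726168, so its stretch does not reach the RefSeq start. *Col1a1* had no entry. *Col6a1* (chr10:76726169-76726288, minus strand), *Col6a2* (chr10:76623631-76623750, minus strand), *Col6a3* (chr1:90843972-90844091, minus strand) and *Col8a2* (chr4:126286673-126286792, plus strand) read as follows.
Col6a1: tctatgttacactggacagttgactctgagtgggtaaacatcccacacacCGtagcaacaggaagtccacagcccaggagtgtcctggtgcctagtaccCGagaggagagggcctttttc
Col6a2: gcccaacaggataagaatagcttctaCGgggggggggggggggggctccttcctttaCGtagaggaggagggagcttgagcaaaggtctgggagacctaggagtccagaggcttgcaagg
Col6a3: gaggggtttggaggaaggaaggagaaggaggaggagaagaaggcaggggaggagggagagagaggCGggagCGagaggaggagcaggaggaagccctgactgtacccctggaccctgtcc
Col8a2: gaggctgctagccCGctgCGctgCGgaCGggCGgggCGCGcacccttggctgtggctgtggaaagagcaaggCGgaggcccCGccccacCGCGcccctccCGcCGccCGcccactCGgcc

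The 3 type VI stretches each held 2 CG pairs and that of *Col8a2* held 15. In the whole RefSeq windows of 300 bases, *Col6a1* and *Col6a3* held 3 CG pairs each, *Col6a2* 6 and *Col8a2* 32, where the median was 12 over the 35 collagen genes with a window and 7 over 32851 windows of the table. The letters GGGCGG, searched on both strands, occurred in the windows of *Col6a2* and *Col8a2*, in 62.9% of collagen windows and in 35.7% of all windows. CCAAT occurred in 34.3% of collagen windows and 37.4% of all, and TATAAA in 14.3% and 13.6%, and neither was found in the windows of these 4 genes. Such matches describe letters only.

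*Col6a1* (ENSMUSG00000001119, chromosome 10, 76708792 to 76726168, minus strand, GRCm38) measured 15.6, 16.6 and 16.0 CPM in GFP and 9.84, 9.79 and 6.56 CPM in Ezh2 libraries. Its log2 fold change was -0.70 ± 0.11 (SE) in 5 libraries (edgeR adjusted p = 3.94e-05) and -0.85 ± 0.16 in 6 (edgeR adjusted p = 0.0179). The groups were clearly separate, and Ezh2 replicate 3 was the lowest library.
For *Col6a2* (ENSMUSG00000020241, chromosome 10, 76595762 to 76623630, minus strand) the levels were 15.1, 11.3 and 13.2 CPM in GFP libraries and 7.14, 7.11 and 6.81 CPM in Ezh2 libraries. Its log2 fold change was -0.88 ± 0.14 in 5 libraries (edgeR adjusted p = 2.7e-05) and -0.87 ± 0.15 in 6 (edgeR adjusted p = 0.0131). The Ezh2 libraries were almost alike, and the spread lay within the control group.
*Col6a3* (ENSMUSG00000048126, chromosome 1, 90765923 to 90843971, minus strand) stood at 10.7, 12.1 and 12.4 CPM in control and at 6.40, 6.45 and 8.15 CPM after *Ezh2* overexpression. The log2 fold change was -0.86 ± 0.14 in 5 libraries (edgeR adjusted p = 3.92e-05) and -0.70 ± 0.16 in 6 (edgeR adjusted p = 0.0398). Again the groups did not overlap, here with Ezh2 replicate 3 nearest to the controls.

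The start sites of *Col6a1* and *Col6a2*, on the same strand, lay 102538 bases apart. The ratio of *Col6a1* to *Col6a2* CPM did not differ detectably. It was 1.24 ± 0.22 (SD, n = 3) in GFP and 1.24 ± 0.24 (SD, n = 3) in Ezh2 libraries, with ranges that overlapped. The ratio of *Col6a3* to *Col6a1* was 0.683, 0.731 and 0.772 in GFP and 0.65, 0.659 and 1.24 in Ezh2 libraries, where replicate 3 stood apart. The type VI calls held in 5 libraries when any library was left out. In the 6-library fit, leaving out GFP replicate 1, 2 or 3 brought *Col6a1* to an edgeR adjusted p of 0.101 to 0.113 and *Col6a3* to 0.124 to 0.198, with log2 fold changes of -0.87 to -0.66, and *Col6a2* to 0.0923 and 0.0929 without GFP replicates 1 and 3. *Col6a3* also lost its 6-library call without Ezh2 replicate 1 (edgeR adjusted p = 0.0995) or 2 (0.0945).

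All 11 fibrillar collagens had negative log2 fold changes, with a median of -0.34 in 5 libraries and -0.26 in 6. In 5 libraries 6 of the 11 fell and 1 was called, and in 6 libraries 3 fell and none was called in edgeR (5 lower at an unadjusted p under 0.05). Summed, the class took 1040.4 to 1101 CPM in GFP libraries and 841.8 to 949.3 CPM in Ezh2 libraries.

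The type I chains, which build the fibrils of skin, tendon and the sheath of the optic nerve, were both lower. *Col1a1* (ENSMUSG00000001506, chromosome 11, 94936224 to 94953042, plus strand) measured 22.6, 19.5 and 24.6 CPM in control and 14.1, 13.2 and 16.6 CPM in Ezh2 libraries. This was a log2 fold change of -0.69 ± 0.11 in 5 libraries (edgeR adjusted p = 1.74e-05), and of -0.56 ± 0.14 in 6, where it missed the threshold (edgeR adjusted p = 0.0527) although no Ezh2 library reached a GFP library. Its partner *Col1a2* (ENSMUSG00000029661, chromosome 6, 4504814 to 4541544, plus strand) stood at 58.0, 54.1 and 61.9 CPM in GFP and 39.5, 44.2 and 44.0 CPM in Ezh2 libraries. With a log2 fold change of -0.46 ± 0.08 (edgeR adjusted p = 4.14e-05) and, in 6 libraries, -0.41 ± 0.09 (edgeR adjusted p = 0.0385), *Col1a2* fell in both fits by less than the 1.5-fold threshold. Its 6-library result was lost whichever library was left out (edgeR adjusted p = 0.0726 to 0.211).

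*Col3a1* and *Col5a1* form fibrils together with type I. *Col3a1* (ENSMUSG00000026043, chromosome 1, 45311538 to 45349706, plus strand) measured 150.9, 136.0 and 139.7 CPM in GFP and 103.1, 104.2 and 97.6 CPM in Ezh2 libraries. Its log2 fold change was -0.45 ± 0.06 in 5 libraries (edgeR adjusted p = 6.49e-07) and -0.45 ± 0.07 in 6 (edgeR adjusted p = 0.00834). All Ezh2 libraries were below the controls, and the 6-library result was lost without GFP replicate 1 (edgeR adjusted p = 0.0791) or 3 (0.0696). *Col5a1* (ENSMUSG00000026837, chromosome 2, 27886425 to 28039514, plus strand) gave 164.9, 157.7 and 158.9 CPM against 141.0, 111.9 and 116.8 CPM. The change was -0.34 ± 0.07 in 5 libraries (edgeR adjusted p = 0.00155) and -0.34 ± 0.09 in 6 (edgeR adjusted p = 0.0486). Ezh2 replicate 1 lay closest to the controls, and there was no overlap. Leaving out GFP replicate 1, 2 or 3 or Ezh2 replicate 2 from the 6 brought the edgeR adjusted p of *Col5a1* to 0.088 to 0.21.

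Type II and type XI collagens, which share fibrils in cartilage and vitreous, gave values that were small or depended on single libraries. *Col2a1* (ENSMUSG00000022483, chromosome 15, 97975602 to 98004695, minus strand), the fibrillar gene with the highest level per kb, measured 589.0, 581.9 and 623.9 CPM in control and 566.1, 499.2 and 490.0 CPM in Ezh2 libraries. At -0.16 ± 0.05 it fell narrowly in 5 libraries (edgeR adjusted p = 0.0363), but not in 6 (-0.17 ± 0.07, edgeR adjusted p = 0.169), nor without GFP replicate 1, 2 or 3 (edgeR adjusted p = 0.0626 to 0.155) or Ezh2 replicate 2 (-0.08, edgeR adjusted p = 0.403). *Col11a2* (ENSMUSG00000024330, chromosome 17, 34039437 to 34066685, plus strand) was at 18.2, 16.2 and 15.8 CPM in GFP and 14.9, 9.33 and 16.5 CPM in Ezh2 libraries. Its value rested on Ezh2 replicate 2, with a log2 fold change of -0.46 ± 0.15 in 5 libraries (edgeR adjusted p = 0.0401), -0.17 without that library (edgeR adjusted p = 0.539) and -0.82 without Ezh2 replicate 1 (edgeR adjusted p = 7.29e-05). In 6 libraries *Col11a2* overlapped between the groups (-0.26 ± 0.21, edgeR adjusted p = 0.466). Leaving out a GFP library also ended its 5-library result (edgeR adjusted p = 0.0788 to 0.138).

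The other 5 fibrillar genes did not pass the test in either fit. *Col5a2*, *Col5a3*, *Col11a1*, *Col24a1* and *Col27a1* had log2 fold changes of -0.41 (*Col24a1*) to -0.04 (*Col5a3*) in 5 libraries. In *Col11a1* Ezh2 replicate 3 stood apart from its group, at 4.78 CPM against 8.88 and 8.91 CPM in the other Ezh2 libraries and 9.26 to 9.51 CPM in control.

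**Figure D3:**
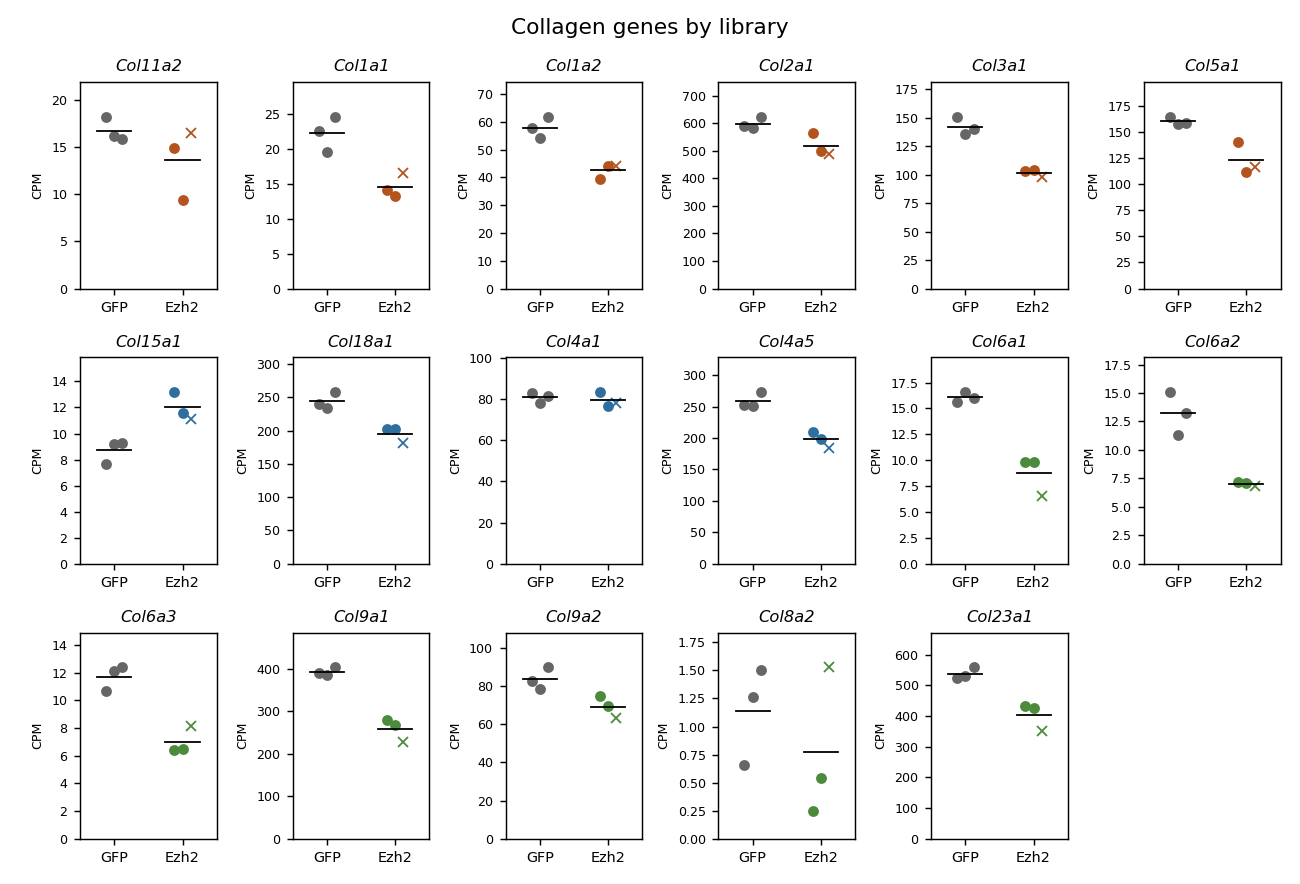
Levels (y axis, CPM) of the 17 collagen genes described with values, 1 panel per gene, in the 3 GFP and the 3 Ezh2 libraries (x axis). Circles and crosses are libraries, the cross being Ezh2 replicate 3, and the line is the mean of each group of 3. *Col6a1*, *Col6a2*, *Col6a3*, *Col1a1*, *Col3a1* and *Col9a1* show separate groups, *Col4a1* overlapping groups, and *Col8a2* a cross at 1.53 CPM above all GFP libraries.

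The basement membrane collagens were divided, with 2 genes that fell, 1 that rose and 5 that did not pass the test in 5 libraries (median log2 fold change -0.19). None was called in either direction by edgeR or DESeq2, and the 3 that passed were also those with an unadjusted p under 0.05. In 6 libraries *Col4a5* and *Col18a1* again fell and none rose in edgeR (1 higher at an unadjusted p under 0.05), with a median of -0.19. Type IV alone had a median of -0.20 in 5 libraries, with 1 of its 6 genes passing the test.

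Type IV chains assemble in fixed trios, of which α1 and α2 are the common one and α3 to α6 more restricted. *Col4a5* (ENSMUSG00000031274, chromosome X, 141475385 to 141689234, plus strand) measured 252.1, 250.7 and 273.4 CPM in GFP and 210.2, 198.8 and 184.6 CPM in Ezh2 libraries. Its log2 fold change was -0.33 ± 0.05 in 5 libraries (edgeR adjusted p = 2.52e-05) and -0.35 ± 0.07 in 6 (edgeR adjusted p = 0.0179), with every Ezh2 library below every control. Without GFP replicate 1, 2 or 3 the 6-library fit gave *Col4a5* an edgeR adjusted p of 0.0903 to 0.141. *Col4a6*, whose start site lies 1309 bases from that of *Col4a5* on the opposite strand, showed 76.9, 72.0 and 74.6 CPM against 79.5, 73.2 and 68.2 CPM (log2 fold change 0.05 ± 0.06, edgeR adjusted p = 0.68). The *Col4a5* to *Col4a6* ratio was therefore 3.28 to 3.66 in GFP and 2.64 to 2.71 in Ezh2 libraries.

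*Col4a1*, which encodes the most common chain of basement membranes, showed no detectable difference. Levels of *Col4a1* (ENSMUSG00000031502, chromosome 8, 11198423 to 11312826, minus strand) were 82.9, 78.3 and 81.6 CPM in GFP and 83.5, 76.5 and 78.3 CPM in Ezh2 libraries. The log2 fold change was -0.01 ± 0.06 in 5 libraries (edgeR adjusted p = 0.956) and 0.01 ± 0.07 in 6 (edgeR adjusted p = 0.932), and the groups overlapped. Its neighbour *Col4a2*, which starts 21 bases away on the other strand, had a log2 fold change of -0.12 ± 0.08 (edgeR adjusted p = 0.317). *Col4a3* and *Col4a4*, another divergent pair with 72 bases between starts, were at 3.06 to 6.77 and 3.79 to 5.86 CPM over all libraries, both with -0.28 and an edgeR adjusted p of at least 0.405.

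Types XV and XVIII, related collagens that carry glycosaminoglycan side chains, went opposite ways. *Col18a1* (ENSMUSG00000001435, chromosome 10, 77052178 to 77166548, minus strand), the source of endostatin, measured 240.1, 234.8 and 258.4 CPM in control and 202.3, 203.3 and 181.2 CPM in Ezh2 libraries. It fell by 0.26 on the log2 scale in 5 libraries (SE 0.05, edgeR adjusted p = 0.000527) and by 0.28 in 6 (SE 0.07, edgeR adjusted p = 0.0385), where the result was lost whichever library was left out (edgeR adjusted p = 0.0539 to 0.22). *Col15a1* (ENSMUSG00000028339, chromosome 4, 47208161 to 47313167, plus strand) measured 7.69, 9.16 and 9.24 CPM in GFP and 13.2, 11.6 and 11.1 CPM in Ezh2 libraries. It was the single collagen that rose, at 0.52 ± 0.13 in 5 libraries (edgeR adjusted p = 0.00558) and 0.50 ± 0.14 in 6, where it did not pass the test (edgeR adjusted p = 0.0697). All Ezh2 libraries lay above all GFP libraries. Without Ezh2 replicate 1 *Col15a1* had 0.44 (edgeR adjusted p = 0.0898), and without Ezh2 replicate 2 it had 0.60 and was called (edgeR adjusted p = 0.0129).

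Beyond type VI, the remaining collagens included the highest of all. The 25 other genes took 1207.6 to 1283.6 CPM in GFP and 814 to 978.6 CPM in Ezh2 libraries, and of the 19 tested 7 fell and 4 were called in 5 libraries (median -0.22). In 6 libraries 5 fell and 3 were called (median -0.24).

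Type IX collagen coats type II fibrils and is made of 3 chains, of which 2 fell in 5 libraries. *Col9a1* (ENSMUSG00000026147, chromosome 1, 24177610 to 24252684, plus strand) measured 390.2, 386.7 and 404.3 CPM in GFP and 280.6, 267.3 and 228.8 CPM in Ezh2 libraries. The log2 fold change of *Col9a1* was -0.51 ± 0.05 in 5 libraries (edgeR adjusted p = 6.7e-09), the smallest adjusted p of the family, and -0.57 ± 0.07 in 6 (edgeR adjusted p = 0.0036). It stayed under the 1.5-fold threshold in both, and the groups were far apart.
*Col9a2* (ENSMUSG00000028626, chromosome 4, 121039385 to 121055322, plus strand) measured 82.5, 78.5 and 90.0 CPM in GFP and 74.8, 69.4 and 63.2 CPM in Ezh2 libraries. It fell in 5 libraries (-0.20 ± 0.06, edgeR adjusted p = 0.0219) but did not pass in 6 (-0.24 ± 0.08, edgeR adjusted p = 0.117), nor without GFP replicate 3 (edgeR adjusted p = 0.155) or Ezh2 replicate 2 (edgeR adjusted p = 0.171). *Col9a3* was at 72.0, 73.6 and 79.7 CPM in control and 67.2, 67.8 and 64.2 CPM in Ezh2 libraries, a log2 fold change of -0.14 ± 0.06 that did not pass (edgeR adjusted p = 0.121).

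The chain balance was compared for 7 pairs over the 6 libraries. *Col9a1* to *Col9a2* CPM stood at 4.49 to 4.93 in GFP and 3.62 to 3.85 in Ezh2 libraries, and *Col9a1* to *Col9a3* at 5.08 to 5.42 and 3.57 to 4.17. Along with *Col4a5* to *Col4a6* these were the pairs without overlap, each with p = 0.1 in a two-sided exact permutation test, the smallest p that 3 against 3 libraries can give, and 0.233 after Benjamini-Hochberg adjustment over the 7 pairs. *Col1a1* to *Col1a2* and *Col4a1* to *Col4a2* overlapped (exact permutation p = 0.2 for both), as did the type VI pairs (exact permutation p = 1).

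*Col23a1* (ENSMUSG00000063564, chromosome 11, 51289920 to 51583918, plus strand), a transmembrane collagen that is also shed from cells, measured 524.1, 529.0 and 559.8 CPM in GFP and 432.8, 426.5 and 352.5 CPM in Ezh2 libraries. It fell in both fits, by 0.31 on the log2 scale in 5 libraries (SE 0.05, edgeR adjusted p = 2.57e-05) and by 0.38 in 6 (SE 0.07, edgeR adjusted p = 0.022). All Ezh2 libraries lay below the controls, and replicate 3 was lowest. Leaving out GFP replicate 1, 2 or 3 from the 6 gave *Col23a1* an edgeR adjusted p of 0.114 to 0.157. The other transmembrane collagens, *Col13a1*, *Col17a1* and *Col25a1*, did not exceed 1.63 CPM in any library and did not pass the test.

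*Col8a2* (ENSMUSG00000056174, chromosome 4, 126286793 to 126314330, plus strand) encodes a short-chain collagen known from the basement membrane of the corneal endothelium, and had few reads. Counts were 20, 40 and 46 in GFP and 8, 19 and 55 in Ezh2 libraries, or 0.654, 1.26 and 1.5 CPM against 0.248, 0.542 and 1.53 CPM. In 5 libraries *Col8a2* had a log2 fold change of -1.49 ± 0.51 (edgeR adjusted p = 0.0379). Ezh2 replicate 3 was the highest of all libraries, and with it the change was -0.49 ± 0.64 (edgeR adjusted p = 0.663). The call was also lost without GFP replicate 2 (-1.41, edgeR adjusted p = 0.0971), GFP replicate 3 (-1.25, edgeR adjusted p = 0.165) or Ezh2 replicate 1 (-1.04, edgeR adjusted p = 0.277), and in DESeq2 (adjusted p = 0.0777).

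Other fibril-associated and network collagens did not pass the test in either fit. *Col12a1*, *Col14a1*, *Col16a1*, *Col20a1* and *Col22a1* ranged from -0.22 (*Col22a1*) to 0.51 (*Col14a1*) in 5 libraries. *Col7a1*, *Col8a1* and *Col10a1* had -0.34, -0.06 and 1.06, the last with 0.506 to 0.851 CPM in GFP and 0.723 to 1.60 CPM in Ezh2 libraries (edgeR adjusted p = 0.0837). Exons of 13 of the 44 members overlap another annotated gene, by at most 6.07% of exon length (*Col9a3* with *Tcfl5*), followed by *Col4a3* at 5.65%, where reads cannot be assigned with certainty. No single overlap of another member exceeded 1.9%.

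Genes that make, process, bind and degrade collagen were set beside the chains, as 6 lists of 80 genes of which 77 were tested. Their median log2 fold change was -0.04 in 5 libraries. Of the 77, 13 fell, beside 7.68% of all genes, and 16 rose, beside 10.1%. The called genes numbered 3, each of them higher, beside 511 of all 20241 tested genes called higher and 3.8% called in either direction. Of 76 tested in 6 libraries 5 fell, 4 rose and 2 were called higher, beside 533, 608 and 320 of all 19732 tested genes.

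Among 18 tested folding and modification enzymes 4 fell and 5 rose, each by less than 1.5-fold (median -0.03). *P4hb*, the disulfide isomerase subunit of prolyl hydroxylase, measured 307.2, 294.0 and 289.2 CPM in GFP and 321.3, 333.3 and 358.1 CPM in Ezh2 libraries, a rise of 0.15 ± 0.05 (edgeR adjusted p = 0.0327) in 5 libraries that did not pass in 6 (edgeR adjusted p = 0.11). *Ppib*, a proline isomerase of procollagen folding, went from 155.4, 135.8 and 139.8 CPM to 161.2, 163.5 and 165.7 CPM (0.19 ± 0.06, edgeR adjusted p = 0.018, and 0.108 in 6 libraries), with 24.96% of its exon length shared with an antisense gene. In the collagen-related lists, genes named without values were those that passed the test in 5 libraries. The 4 that fell were *P4ha2*, *Plod2*, *P3h2* and *Colgalt2*, which hydroxylate or glycosylate chains, and the others that rose were *Plod1*, *Plod3* and *Serpinh1*. The list thus held enzymes of the same kind in both directions. Antisense genes also overlapped other genes of the related and marker lists. Among them were *Nefl* (32.78% of exon length), *P3h2* (28.35%), *Fbn1* (20.14%), *Car14* (17.5%), *Csf1r* (15.12%) and *Plod3* (11.71%).

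Procollagen processing and crosslinking had 13 tested genes, of which 2 fell (*Tll1* and *Pcolce2*) and 2 rose (*Bmp1* and *Adamts14*), with a median of -0.11. *Adamts14*, a procollagen N-proteinase, had 22, 50 and 51 counts in GFP and 89, 107 and 74 counts in Ezh2 libraries. It was called higher in 5 libraries (1.15 ± 0.32, edgeR adjusted p = 0.00922) and not in 6 (1.02, edgeR adjusted p = 0.11), although all Ezh2 libraries were above all controls.

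Of 10 tested receptors *Itga2* and *Itgb1* rose. *Ddr1*, a receptor kinase that collagen activates, was the most abundant per kb, at 780.7, 788.0 and 820.7 CPM in GFP and 766.0, 733.5 and 678.1 CPM in Ezh2 libraries (-0.08 ± 0.05, edgeR adjusted p = 0.317). *Itgb1*, the β subunit of collagen-binding integrins, measured 283.4, 268.8 and 261.4 CPM against 316.7, 318.6 and 284.3 CPM (0.24 ± 0.05, edgeR adjusted p = 0.000819, and 0.0824 in 6 libraries). The groups of *Itgb1* did not overlap, by a margin of less than 1 CPM.

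Degradation and its inhibitors held 2 of the 3 called genes. *Timp1*, an inhibitor of matrix metalloproteinases, measured 13.2, 16.2 and 12.6 CPM in GFP and 24.3, 27.1 and 21.3 CPM in Ezh2 libraries, and was called higher in 5 libraries (0.89 ± 0.11, edgeR adjusted p = 4.22e-07) and in 6 (0.83, edgeR adjusted p = 0.011). *Mmp8*, the neutrophil collagenase, had 0, 0 and 3 counts in GFP and 52, 69 and 38 counts in Ezh2 libraries and was called in both fits (edgeR adjusted p = 4.45e-07 and 0.00584). The Ezh2 to GFP ratio of its summed counts, scaled to the summed library totals, was 55.8 in 5 libraries, with an exact counting interval at 95% confidence of 18.6 to 274.2. Of 11 tested genes in this list 4 rose, the remaining ones being *Mmp2* and *Mmp14* (median 0.10).

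Basement membrane partners and fibril-binding proteins were mixed. Of 15 laminins, nidogens and heparan sulfate proteoglycans 4 fell (*Lama1*, *Lama2*, *Lama3* and *Agrn*) and *Nid1* rose, with a median of -0.04. *Lamb2*, a laminin β chain, was the most abundant per kb at 254.0, 235.6 and 266.7 CPM in GFP and 236.8, 234.6 and 214.1 CPM in Ezh2 libraries (-0.09 ± 0.05, edgeR adjusted p = 0.3), and *Lama5*, a laminin α chain, followed with 400.2, 381.4 and 422.2 CPM against 400.6, 334.5 and 354.0 CPM (-0.12 ± 0.06, edgeR adjusted p = 0.203). Both overlapped between the groups. Of 10 fibril-binding genes 3 fell (*Sparc*, *Bgn* and *Fbn1*) and 2 rose (*Fn1* and *Tgfbi*), with a median of -0.06. *Sparc*, a collagen-binding glycoprotein, measured 1378.2, 1352.0 and 1339.8 CPM in GFP and 1195.2, 1230.4 and 963.7 CPM in Ezh2 libraries (-0.15 ± 0.05, edgeR adjusted p = 0.0316, and 0.13 in 6 libraries). *Prelp*, which anchors basement membranes to fibrils, was at 263.9, 266.1 and 291.5 CPM against 285.4, 273.9 and 237.7 CPM, with overlap (0.04 ± 0.05, edgeR adjusted p = 0.661).

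**Figure D4:**
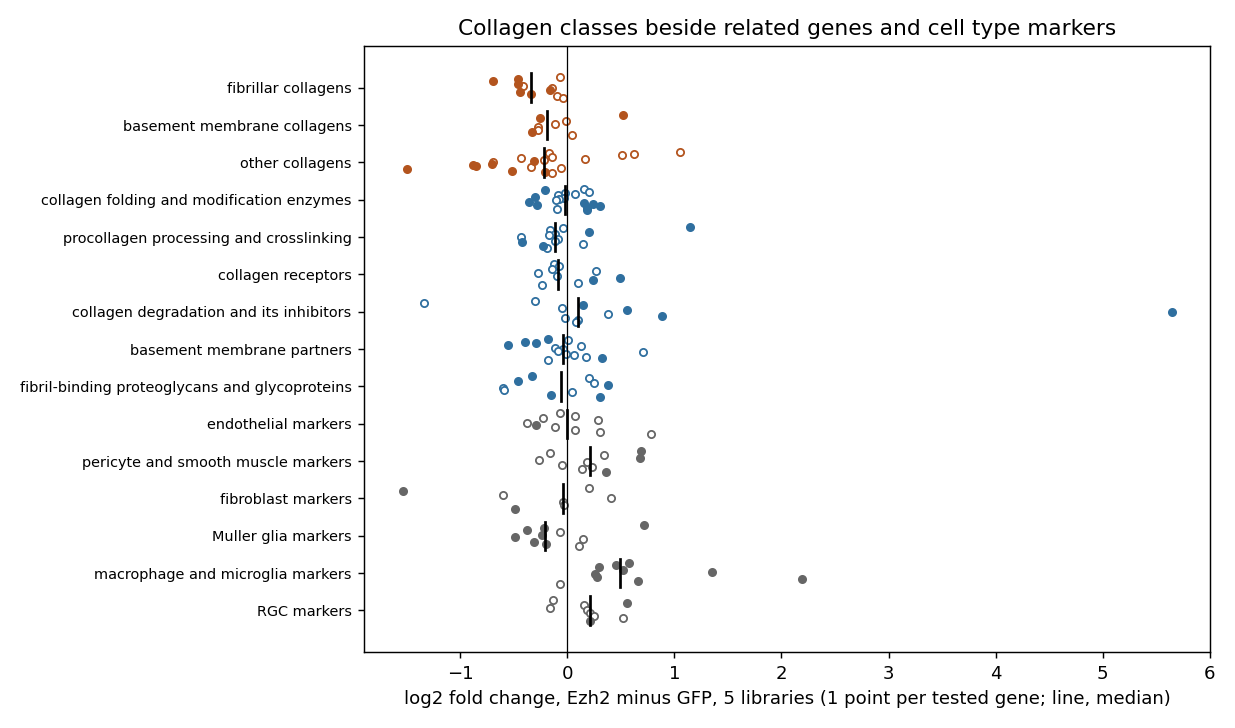
Log2 fold change in 5 libraries (x axis, Ezh2 minus GFP) of each tested gene of the 3 collagen classes, the 6 collagen-related lists and 6 marker lists (y axis). Each point is a gene, filled where its adjusted p was under 0.05, and the vertical bar is the median of the list. The 3 collagen medians lie at -0.34, -0.19 and -0.22, that of Müller glia markers at -0.21 and that of macrophage markers at 0.49, with *Mmp8* at the far right.

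Markers of cell types that make collagen, or that the sort could hold, were measured in the same libraries. In bulk samples fewer cells of a type and less RNA per cell cannot be told apart. The marker counts below stand beside 7.68% of all tested genes that fell and 10.1% that rose in 5 libraries. In 6 libraries 533 of 19732 tested genes fell and 608 rose. Of 10 Müller glia markers 6 fell and 1 (*Apoe*) rose in 5 libraries, with a summed level of 30857.9 to 31519.8 CPM in GFP and 29242.6 to 31076.3 CPM in the 2 Ezh2 libraries, or down to 23818.8 CPM with Ezh2 replicate 3. A second sum left out *Apoe*, picked with its values in view. It was 25221.2 to 26028.8 CPM in GFP and 16716.4 to 21438.5 CPM in Ezh2 libraries, with no overlap. *Sox9* and *Hes1* also had positive log2 fold changes, 0.109 and 0.145, and did not pass the test (edgeR adjusted p = 0.187 and 0.0728). *Glul* went from 9540.5 to 9900.2 CPM in GFP to 5445.7 to 6937.0 CPM in Ezh2 libraries (-0.49 ± 0.05, edgeR adjusted p = 4.01e-08 in 5 libraries). This was the lowest of the 10 log2 fold changes of Müller glia markers, which had a median of -0.21 and reached 0.72 in *Apoe*. Of 10 fibroblast markers 7 were tested and 2 fell (*Fbln1* at -1.54 and *Scara5* at -0.49). The 10 summed to 105.3 to 111.8 CPM in GFP and 72.5 to 90.4 CPM in Ezh2 libraries. *Fbln1* went from 26.8, 33.6 and 29.0 CPM in GFP to 8.45, 11.9 and 5.81 CPM in Ezh2 libraries. *Pdgfra*, the most abundant of the 10 at 42.7 to 53.8 CPM over all libraries, did not pass (-0.035, edgeR adjusted p = 0.834 in 5). The defining fibroblast genes *Dpt* and *Dpep1* had at most 3 counts in any library, and *Dcn* did not pass the test (0.20, edgeR adjusted p = 0.599).

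Of 10 pericyte and smooth muscle markers 3 rose, at 528.3 to 597.8 CPM in GFP and 513.9 to 618 CPM in Ezh2 libraries. Of 10 endothelial markers 1 fell (*Flt1*), at 3228.5 to 3387.9 and 2351.5 to 2956.6 CPM, sums made up mostly of *Kdr* (1720.5 to 2428.8 CPM over all libraries, edgeR adjusted p = 0.114 in 5) and *Flt1* (587.9 to 925.8 CPM). The median log2 fold change of the 10 was 0 in 5 libraries, and 5 were negative. *Pecam1* had 13.1 to 16.7 CPM over all libraries. *Cdh5* had 2.03 to 3.89, *Cldn5* 2.25 to 4.65, *Emcn* 1.95 to 3.11 and *Egfl7* 1.78 to 3.92 CPM. None of these less abundant markers passed the test (edgeR adjusted p of at least 0.51 in 5 libraries). The lower sums therefore mainly reflect *Kdr* and *Flt1*. Macrophage and microglia markers rose in 9 of 10 in 5 libraries and in 3 of 10 in 6, with sums of 1974.8 to 2203.4 CPM in GFP, 3575.4 and 4194 CPM in Ezh2 replicates 1 and 2, and 2818.7 CPM in Ezh2 replicate 3. RGC markers rose in 2 of the 9 tested (*Thy1* and *Nefl*), with sums of 137.6 to 141.3 CPM in GFP and 154.7 to 168.6 CPM in Ezh2 libraries. Most of these sums came from *Thy1* (87.2 to 113.8 CPM over all libraries), whose product was used for the sort. In 5 libraries 7 of the 9 did not pass and 2 of the 9 log2 fold changes were negative. Of 5 astrocyte markers 2 rose in 5 libraries, and *Gfap* was called higher (1.01, edgeR adjusted p = 1.38e-05). Their sums were 719.6 to 774.1 CPM in GFP and 1061.2 to 1294.1 CPM in Ezh2 libraries. T cell markers rose in 8 of 9, with sums of 453.3 to 483.5 and 583.2 to 978.8 CPM. Rod markers rose in 5 of 8 and cone markers in 8 of 8, beside 10.1% of all tested genes. In 6 libraries these 4 lists had 2, 2, 0 and 2 that rose. Of 9 tested amacrine markers 3 fell and 1 rose in 5 libraries, and no bipolar marker passed. Retinal pigment epithelium genes summed to 7.30 to 10.1 CPM over all libraries with an edgeR adjusted p of at least 0.12 for the 4 tested, and of 8 lens genes 5 were tested and *Cryaa* was called lower (-1.82, edgeR adjusted p = 0.0107), with sums of 113.6 to 115.4 CPM in GFP and 99.4 to 127.1 CPM in Ezh2 libraries, mostly from *Cryab* (98.4 to 125.3 CPM). The part of these cell types in the collagen result was not tested.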

How the data were processed

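Members and gene lists were chosen with earlier results of these data known. The authors deposited 1 table of raw read counts per Ensembl gene for the 6 libraries, made from stranded total RNA libraries. STAR 2.7.0d and build GRCm38 are named in the submitters' processing notes, while the counting program, annotation release and strand setting are not given in the sources used here. All 6 columns were matched to samples by title, leaving 0 unmatched. Symbols, exon lengths and coordinates came from GENCODE release M21, and promoter windows from RefSeq (GRCm38.p6).

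Counts were filtered with filterByExpr, scaled by TMM (factors 0.952 to 1.01) and fitted with the robust quasi-likelihood F test of edgeR 4.0.16 (R 4.3.3), with group as the only term, on GFP replicates 1 to 3 and Ezh2 replicates 1 and 2. Two-sided p values were adjusted with the Benjamini-Hochberg procedure over all tested genes. A call required 0.05 as the limit of the adjusted p together with a change of more than 1.5-fold. CPM used library totals. The fit was tested on simulated counts.

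Collagens given with values were those that passed the test in a 5- or 6-library fit, were called by DESeq2, or were among the 3 most abundant per kb of their class. In each collagen-related list these were the called genes or, where there were none, the 2 most abundant per kb. Any further gene was picked with its values in view. As alternatives, the fit was repeated on all 6 libraries, without each library, with a replicate block, in DESeq2 1.42.0, with RLE size factors or library totals alone, unfiltered, with a mean of 50 counts as the filter, without the fold threshold and on type IV alone. Figures were drawn with matplotlib 3.10.9.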

Additional observations from a re-analysis of the deposited data

How the results depend on the processing

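With all 6 libraries the called collagens numbered 3, of which 0 were fibrillar, against 5 and 1 in 5 libraries, and the *Col4a1* log2 fold change turned from -0.01 to 0.011. Dropping the fold threshold gave 16 collagens in place of 5. *Col1a1* and *Col8a2* were the calls lost with 6 libraries. Without 1 library at a time, from the 5 or from all 6, the called collagens numbered 0 to 6, the fibrillar ones 0 to 2, the basement membrane ones 0 to 1, the other ones 0 to 5 and the related genes 0 to 5. Over the same fits the median log2 fold change ran from -0.271 to -0.168 for all collagens, from -0.368 to -0.168 for fibrillar, from -0.235 to -0.055 for basement membrane and from -0.31 to -0.181 for other collagens, and *Col4a1* from -0.057 to 0.045. Where 1 Ezh2 library remained, it was assumed to vary like the GFP group. Of the 10 collagens that fell in 6 libraries, *Col9a1* alone passed in all 5 fits that left out 1 library (edgeR adjusted p up to 0.0477). The cause of these differences was not tested.

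Deviations of libraries with the same replicate number correlated at -0.0183 to -0.000369. Libraries with different numbers were not compared in this way, so these values cannot show whether the numbers mark a pairing. With the replicate block, 5 related genes were called in place of 3 and the median of other collagens was -0.149. With the replicate block on 6 libraries, 2 collagens were called, 0 fibrillar and 2 other, and *Col4a1* had 0.011. DESeq2, RLE size factors, library totals alone, no filter and a filter at 50 counts on average gave 4 or 5 called collagens, with *Col8a2* the one lost in DESeq2. Over 17 collagen genes and 18 alternatives, with the call as adjusted p and fold together, 264 of 305 values kept their direction and call status, 30 lost the call, 4 gained it and 7 turned sign, each of the 7 being *Col4a1*. By adjusted p alone, 98 of 287 values of the 16 genes that passed in 5 libraries did not pass, 79 of them in fits that included Ezh2 replicate 3. The 6 untested collagens had at most 12 counts in any library.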
